A study of Mus musculus with 9 samples.

Results

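Homoharringtonine-treated fibrotic lung was compared with vehicle lung in 6 of the 9 arrays of the series, 3 per group, over all 41345 probe sets of an Affymetrix whole-transcript array. The samples were taken from the group labels alone and not from any measured value. All 9 mice were C57BL/6J males whose lungs came from animals of 11 weeks. The treated mice had received 2 U/kg bleomycin into the trachea at 8 weeks of age and, from day 5, homoharringtonine at 0.545 mg/kg into the peritoneum 2 times a week for 15 days. The vehicle mice had neither agent: PBS was instilled instead of bleomycin and vehicle was injected on the same schedule. The remaining 3 arrays, from mice given bleomycin and vehicle injections, entered the fit for its estimate of spread and stand beside the comparison. No group had homoharringtonine without bleomycin, so the contrast with vehicle holds the effects of both agents. The labels describe each sample as lung of a mouse and say nothing of pooling, so the p-values measure the spread between these samples.

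Bleomycin is a DNA-breaking antibiotic that injures the alveolar epithelium and endothelium when it is instilled into the mouse lung. Monocytes then enter the tissue and become macrophages, and fibroblasts lay down collagen and fibronectin, a scar that in young mice partly resolves. Homoharringtonine, a plant alkaloid also known as omacetaxine, binds the ribosome and blocks the elongation step of translation. In whole lung, fewer cells of a type and less RNA per cell cannot be told apart.

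The array medians lay between 4.49 and 4.57 on the log2 scale, with no array a copy of another. Principal component 1 (33.9% of the variance) placed vehicle between -56.1 and -33.2, homoharringtonine arrays at 2.49, 2.80 and 21.5, and the arrays of bleomycin alone at 16.0, 48.4 and 46.6. Component 2 (13.7%) set the homoharringtonine arrays, at -14.6, -28.7 and -41.1, apart from both other groups. On it vehicle lay between 1.26 and 15.5 and bleomycin alone between 7.57 and 39.1. Of 12 genes that mark lung tissue 3 could be looked up by name, and all were bright in both groups. The surfactant gene Sftpa1 had log2 signals from 11.28 to 11.41 in vehicle and from 10.91 to 11.40 in homoharringtonine lungs, the mesenchymal factor Foxf1 from 9.24 to 9.26 and from 7.93 to 8.85, and the endothelial junction gene Cldn5 from 8.36 to 8.47 and from 7.20 to 7.72.

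The macrophage gene Spp1 had the largest rise of a named gene in the treated lungs against vehicle lungs, and the retinol-storing enzyme gene Lrat and the clock factor gene Arntl had the largest falls. At an adjusted p under 0.05 limma called 209 of 41345 probe sets (0.506%), 80 of them higher (0.193%) and 129 lower (0.312%), and 204 (0.493%) when a fold of at least 1.5 was also asked for. Treated and vehicle arrays were fully separate in all 209, as they were in 21.1% of all probe sets. For comparison, bleomycin alone against the same vehicle arrays gave 3218 calls (7.78%), and homoharringtonine against bleomycin alone gave 39 (0.0943%). Names were known only for probe sets that the authors had listed as changed in at least 1 of their 3 comparisons of these arrays. Of the 2010 named probe sets 148 were called (7.36%), 60 higher (2.99%) and 88 lower (4.38%). Read as 1908 genes, 141 were called (7.39%), 56 higher (2.94%) and 85 lower (4.45%). Their median difference was -0.25 on the log2 scale, against 0.003 for all probe sets. An unadjusted limma p under 0.05 was reached by 6621 of all probe sets (16%), and the share among the named genes is not given here. Counts within gene lists are to be read against these shares, and since the authors chose the named genes on these arrays, the counts are not independent evidence of a direction.

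The count of calls changed when single arrays were left out. It was 69, 13 and 7 without vehicle replicate 1, 2 or 3, and 122, 113 and 14 without homoharringtonine replicate 1, 2 or 3. Without bleomycin replicate 1, 2 or 3 it was 257, 97 and 181. Each of these fits also had fewer arrays, and lost power was not told apart from the weight of a given array. With the replicate number as a block it was 22. The 141 named genes kept their sign under all 17 alternative fits. As their treated and vehicle arrays did not overlap, only the 2 scalings could have reversed a sign. Of the 141 genes 4, Spp1, Lrat, Arntl and Plac9b, were called under all 17. Each of the others lost its call under at least 1.

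**Figure D1:**
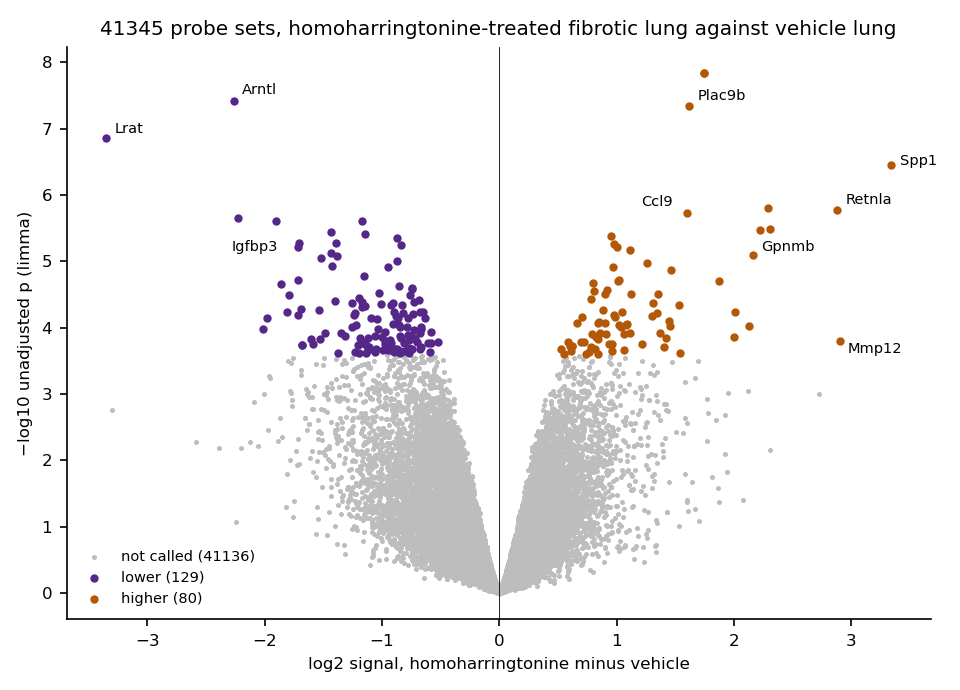
Each point is 1 of 41345 probe sets, with its log2 difference between homoharringtonine-treated and vehicle lung (3 arrays each) on the horizontal axis and −log10 of its unadjusted limma p on the vertical axis. The 80 probe sets called higher and the 129 called lower are coloured, and Spp1 (3.34) and Lrat (-3.35) lie farthest out among the named genes.

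Genes of monocyte-derived macrophages had the most members called. Of 26 listed genes 22 were named, 9 rose and none fell, with a median log2 difference of 0.99. The mean level of the 22 genes lay between 6.07 and 6.10 in the vehicle arrays, between 7.01 and 7.58 with homoharringtonine and between 8.04 and 8.42 with bleomycin alone. Among those that rose were Spp1, Retnla, Gpnmb, Ctsk, C1qb, C1qa, Trem2 and Cd63. The count was 1 without vehicle replicate 3, 2 without vehicle replicate 2 or homoharringtonine replicate 3, and 5 without vehicle replicate 1 or homoharringtonine replicate 1.

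Spp1 encodes osteopontin, a secreted glycoprotein of macrophages in scarred lung. Its log2 signal was 6.81, 6.74 and 7.07 in the vehicle arrays and 10.02, 10.05 and 10.58 in the homoharringtonine arrays. Every treated array was far above every vehicle array. The difference was 3.34 ± 0.24 (SE), a 10.1-fold rise with an adjusted p of 0.00245. In the arrays of bleomycin alone Spp1 was at 11.16, 11.95 and 11.14, above all treated arrays.

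Retnla, a secreted protein of macrophages activated by type 2 cytokines, read 6.85, 7.30 and 6.87 in vehicle and 9.70, 9.59 and 10.38 in treated lungs. It rose 7.36-fold (log2 difference 2.88 ± 0.25, SE, adjusted p 0.00848). The treated arrays overlapped the 9.84 to 10.56 of bleomycin alone. Gpnmb, a membrane glycoprotein of lipid-laden macrophages, read 5.97, 5.91 and 5.44 in vehicle and 7.73, 7.93 and 8.14 in treated lungs, a 4.47-fold rise (adjusted p 0.0124). Its treated arrays were all below the 8.48 to 9.24 of bleomycin alone. The lipid-sensing receptor Trem2 rose 2.17-fold (log2 difference 1.12 ± 0.12, SE, adjusted p 0.0112) and the lysosomal tetraspanin Cd63, at 7.55 to 7.69 in vehicle and 8.51 to 8.76 in treated arrays, rose as well (adjusted p 0.0106).

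Complement genes made in macrophages followed. C1qb and C1qa, which encode 2 of the C1q chains that start the classical pathway, rose 2.68-fold (adjusted p 0.0428) and 2.54-fold (adjusted p 0.0308). The C1qb signal was 6.78, 6.97 and 6.70 in vehicle and 8.25, 7.77 and 8.70 in treated lungs, where bleomycin alone gave 9.20 to 9.62. These were the 2 called among 8 named of 16 complement genes, and neither was called without 1 of the vehicle arrays or without homoharringtonine replicate 1 or 3. The receptor C3ar1 differed by 1.48 (95% interval 0.89 to 2.06) and did not pass (adjusted p 0.0531).

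The chemokines Ccl9 and Ccl6, which attract myeloid cells in the mouse, were the 2 called among 11 named cytokine and chemokine genes. Ccl9 read 6.81, 6.53 and 6.78 in vehicle and 8.18, 8.18 and 8.55 in treated lungs, with no overlap, and rose 3.02-fold (log2 difference 1.60 ± 0.14, SE, adjusted p 0.00848). Ccl6 rose 2.56-fold (adjusted p 0.0251), and its treated arrays, 9.34 to 9.99, spanned the 9.50 to 9.75 of bleomycin alone. The fungal-recognition receptor Clec4n (Dectin-2) rose 3.99-fold, from 6.63, 6.41 and 6.62 to 8.59, 7.91 and 9.15 (adjusted p 0.0423). AA467197, the mouse counterpart of human C15orf48 and a mitochondrial protein of inflamed cells, rose 2.75-fold (adjusted p 0.0359), from 4.14 to 4.40 in vehicle arrays to 5.49 to 6.25.

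Other myeloid markers moved in both directions. Among 10 named of 17 alveolar macrophage markers Ccl6 rose, the lipid-binding Fabp1 fell 1.87-fold (adjusted p 0.0358) and Flt1, which endothelium also expresses, fell 1.80-fold (adjusted p 0.0479). The eosinophil-type ribonuclease Ear1 differed by -1.69 (95% interval -2.39 to -0.99) without passing (adjusted p 0.0595). Of 7 named neutrophil genes only Lcn2, an iron-scavenging protein that injured epithelium also makes, rose (2.33-fold, adjusted p 0.0441). The neutrophil calgranulin S100a9 read 5.65, 4.86 and 5.57 in vehicle and 4.81, 4.93 and 5.06 in treated lungs, which overlapped, with a difference of -0.43 ± 0.47 (SE, adjusted p 0.699).

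Of 23 listed matrix proteases, lysosomal cathepsins and inhibitors 16 were named, 5 rose, 11 did not pass and none fell, with a median difference of 0.73. Mmp12, the macrophage elastase, read 5.23, 5.21 and 5.61 in vehicle and 8.10, 8.01 and 8.65 in treated lungs. It rose 7.46-fold (log2 difference 2.90 ± 0.46, SE, adjusted p 0.0441), while the arrays of bleomycin alone, which share in its error, spread over 9.05, 7.97 and 6.91. Ctsk, a collagen-degrading cathepsin, rose 4.02-fold from 5.74, 5.65 and 5.66 to 7.81, 7.29 and 7.98 (adjusted p 0.0308). Ctss rose 2.73-fold (adjusted p 0.0350), Ctsd 2.39-fold (adjusted p 0.0139) and the metalloproteinase Mmp19 2.06-fold (adjusted p 0.0308). None of the 16 passed without vehicle replicate 2 or 3 or homoharringtonine replicate 3, 1 passed without vehicle replicate 1 or homoharringtonine replicate 1, and 3 without homoharringtonine replicate 2.

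Of 30 listed structural matrix genes 21 were named, 4 rose and none fell, while all 21 had positive differences with a median of 0.70. Of the 21 genes 17 had an unadjusted p under 0.05, as had 16% of all probe sets. The mean level of the 21 genes was 6.96 to 7.03 in vehicle arrays, 7.51 to 7.96 with homoharringtonine and 8.47 to 8.68 with bleomycin alone. Tnc, the wound glycoprotein tenascin C, read 5.23, 4.99 and 4.96 in vehicle and 7.39, 6.48 and 7.68 in treated lungs, a 4.36-fold rise (log2 difference 2.12 ± 0.31, SE, adjusted p 0.0359). Fibronectin (Fn1) went from 8.93, 8.79 and 8.95 to 10.70, 9.88 and 10.68, a 2.89-fold rise (adjusted p 0.0288). In both genes homoharringtonine replicate 2 was the lowest treated array. Col1a1, for the alpha chain of type I collagen, rose 2.58-fold from 8.05, 8.15 and 7.99 to 9.44, 9.12 and 9.74 (adjusted p 0.0404), and the basement membrane chain Col4a1 rose 1.77-fold (adjusted p 0.0424). None of the 4 was called without any 1 of the vehicle arrays, without bleomycin replicate 2 or without homoharringtonine replicate 1 or 3.

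Ctgf, a matricellular target of TGF-beta, rose 2.47-fold (log2 difference 1.31 ± 0.17, SE, adjusted p 0.0283), from 7.18, 7.32 and 7.28 to 8.87, 8.39 and 8.44. It was the 1 call among 9 named of 15 TGF-beta targets, whose median difference was 0.98. Among 9 named genes of collagen maturation only P4ha1, a prolyl hydroxylase subunit for collagen, was called, and it fell 1.57-fold (adjusted p 0.0308). Its arrays lay at 8.29, 8.39 and 8.43 in vehicle and at 7.73, 7.80 and 7.64 in treated lungs, and it was not called without any 1 of the vehicle arrays, bleomycin replicate 2 or homoharringtonine replicate 1 or 3. Of 5 named myofibroblast and smooth muscle genes limma called 0, 1 had an unadjusted p under 0.05 and the authors' deposited table listed 0. That 1 was the actin-binding Tagln, with vehicle arrays at 6.24, 6.32 and 6.03, treated arrays at 6.66, 6.74 and 6.76 and a difference of 0.52 (95% interval 0.24 to 0.80, adjusted p 0.102).

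**Figure D2:**
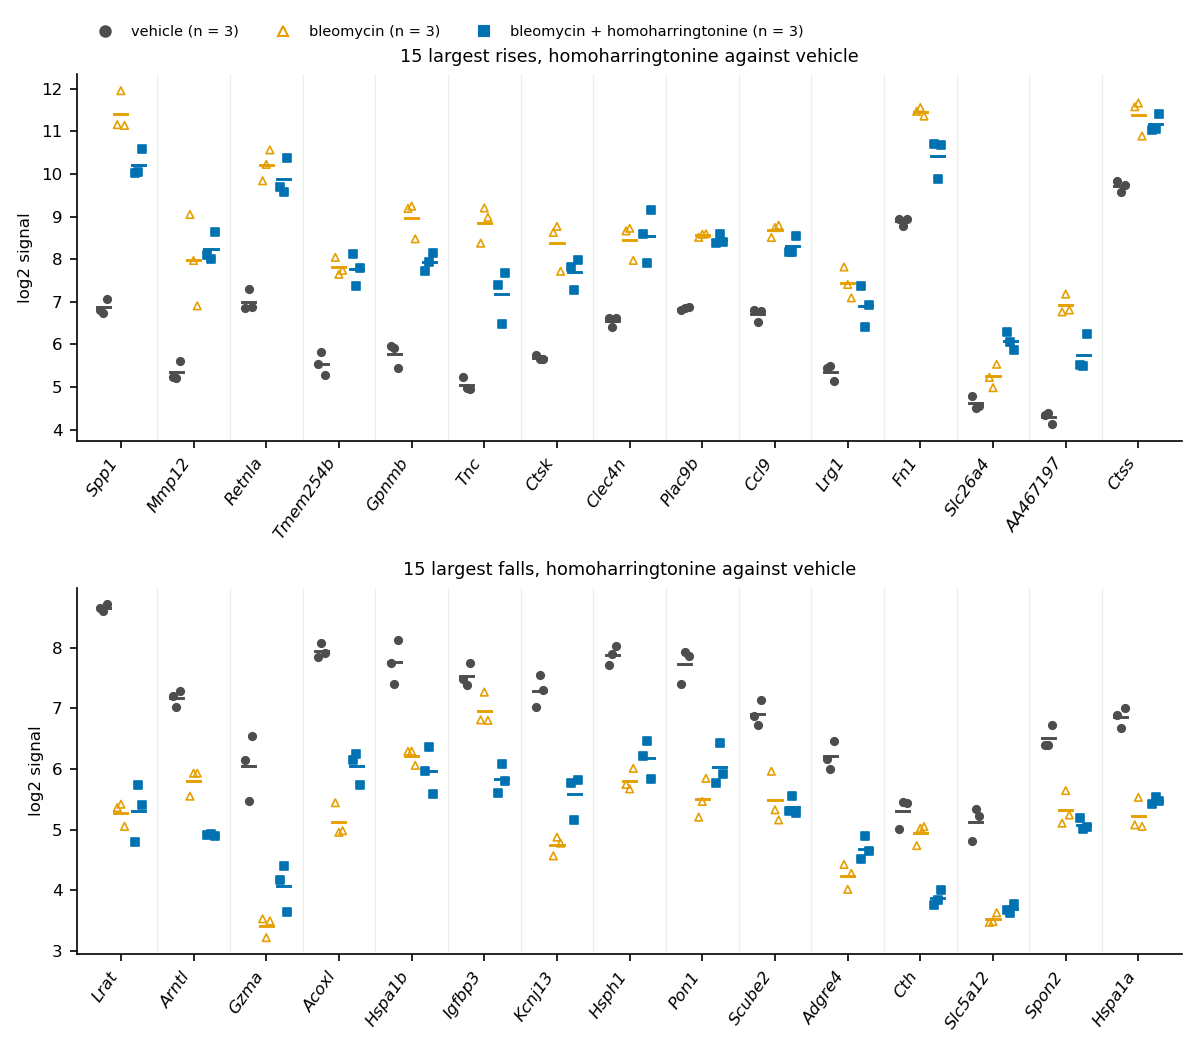
Log2 signals of the 15 genes with the largest rises (top) and falls (bottom) of homoharringtonine-treated against vehicle lung, with 1 symbol per array, 3 groups of 3 arrays, and a short line at each group mean. Vehicle and homoharringtonine arrays do not overlap in any of the 30 genes, by the rule that chose them, and the bleomycin arrays are shown for reference.

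Lrat had the largest fall of a named gene. It encodes lecithin retinol acyltransferase, which turns retinol into storable esters in lipid-holding fibroblasts of the alveolar wall. The vehicle arrays read 8.65, 8.61 and 8.72 and the treated arrays 4.79, 5.74 and 5.40, with the 3 vehicle arrays close together and the treated arrays spread over about 1 log2 unit. The fall was 10.2-fold (log2 difference -3.35 ± 0.22, SE, adjusted p 0.00112). Bleomycin alone gave 5.36, 5.42 and 5.05, within the treated range. Lrat was the 1 call among 6 named of 14 resident fibroblast markers, and all 6 had negative differences (median -0.82). Itga8, an integrin subunit of the same cells, differed by -0.92 (95% interval -1.38 to -0.46) without passing (adjusted p 0.0877).

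Of 27 listed enzymes of retinoid and xenobiotic metabolism 11 were named, 3 fell and none rose, with a median of -0.97. Besides Lrat, the flavin monooxygenase Fmo1 fell 2.18-fold from 9.71, 9.51 and 9.66 to 8.65, 8.62 and 8.24 (adjusted p 0.0427). Cyp1a1, the classical target of the aryl hydrocarbon receptor, fell 2.06-fold from 4.69, 4.72 and 4.62 to 3.85, 3.46 and 3.59 (adjusted p 0.0329). Its treated values lay below the array medians and not far above the array lower quartiles of 3.21 to 3.24. Lrat alone stayed called without any 1 of the vehicle arrays, without bleomycin replicate 2, and without homoharringtonine replicate 2 or 3.

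Acoxl and Pon1 were the 2 calls among 12 named of 19 alveolar type 2 cell genes. Acoxl, an acyl-CoA oxidase-like gene of these surfactant-making cells, read 7.84, 8.08 and 7.91 in vehicle and 6.16, 6.24 and 5.74 in treated lungs. It fell 3.73-fold (log2 difference -1.90 ± 0.18, SE, adjusted p 0.00855), and bleomycin alone was lower still, at 4.95 to 5.44. The lipid-lactone hydrolase Pon1 fell 3.23-fold (adjusted p 0.0308). Neither was called without vehicle replicate 2 or 3. Among the genes not called, Lyz1, a lysozyme, averaged 10.19 ± 0.19 (SD, n = 3) in vehicle and read 9.87, 9.34 and 9.39 in treated lungs and 7.82, 7.43 and 7.33 with bleomycin alone. Its difference from vehicle, -0.66 (95% interval -1.08 to -0.23), did not pass (adjusted p 0.147).

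In the remaining epithelial lists limma called few genes. Of 4 named alveolar type 1 genes it called 0, 2 had an unadjusted p under 0.05 and the authors listed 0, and the scaffold protein gene Rtkn2 differed most (-0.80, 95% interval -1.32 to -0.27). Of 7 named ciliated cell genes it called 0, 4 had an unadjusted p under 0.05 and the authors listed 0, with Tppp3 at -0.94 (95% interval -1.47 to -0.42). Of 7 named club cell genes, all lower in the treated lungs, the only call was Kdr, an endothelial receptor more than a club cell marker. The secretory-cell cytochrome Cyp2f2 differed by -0.97 (95% interval -1.45 to -0.50, adjusted p 0.0846). In the list of transitional epithelium, the stressed state between alveolar cell types, 9 of 15 genes were named and all 9 were higher. Limma called 0 of them, 6 had an unadjusted p under 0.05 and the authors listed 2. The junction gene Cldn4 differed by 1.29 (95% interval 0.75 to 1.82, adjusted p 0.0624).

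Of 29 listed genes of the vascular endothelium 22 were named, 5 receptor genes fell and none rose, 21 had negative differences and the median was -0.80. The mean level of the 22 genes was 8.80 to 8.82 in vehicle arrays, 7.77 to 8.26 with homoharringtonine and 7.36 to 7.75 with bleomycin alone. Kdr, the main receptor of VEGF, read 9.70, 9.84 and 9.89 in vehicle and 8.84, 8.66 and 8.34 in treated lungs, and fell 2.29-fold (log2 difference -1.20 ± 0.16, SE, adjusted p 0.0275). The angiopoietin receptor Tek fell 1.89-fold (adjusted p 0.0473), the VEGF receptor Flt1 1.80-fold (adjusted p 0.0479), the BMP9 receptor Acvrl1 1.77-fold (adjusted p 0.0288) and the endothelin receptor Ednrb 2.59-fold (adjusted p 0.0484). In Kdr, Tek, Flt1 and Ednrb homoharringtonine replicate 3 was the lowest treated array. No endothelial gene was called without any 1 of the vehicle arrays or without homoharringtonine replicate 2 or 3, and 2 were called without bleomycin replicate 2.

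Of 9 named B and plasma cell genes 2 fell: Pax5, the factor that fixes B cell identity, fell 2.23-fold (adjusted p 0.0190), from 5.52 ± 0.18 to 4.37 ± 0.21 (SD, n = 3), and the transcription factor Spib fell 2.05-fold (adjusted p 0.0379). All 9 had an unadjusted p under 0.05, and 8 of the 9 were lower. The exception was the antibody-joining chain Jchain, at 1.94 with an adjusted p of 0.202. The surface protein Ms4a1 (CD20) differed by -1.03 (95% interval -1.47 to -0.59, adjusted p 0.0628). Gzma, the granzyme of killer lymphocytes, read 6.14, 5.47 and 6.54 in vehicle and 4.17, 4.40 and 3.64 in treated lungs, a 3.94-fold fall (log2 difference -1.98 ± 0.28, SE, adjusted p 0.0321). It was the 1 call among 5 named of 12 NK cell genes, with all 5 named lower. Neither B cell gene was called without any 1 of the vehicle arrays or without homoharringtonine replicate 3. Of 27 listed interferon-response genes 8 were named, all 8 lower. Limma called 0 of them, 6 had an unadjusted p under 0.05 and the authors listed 1. Genes of T cells have no name here.

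**Figure D3:**
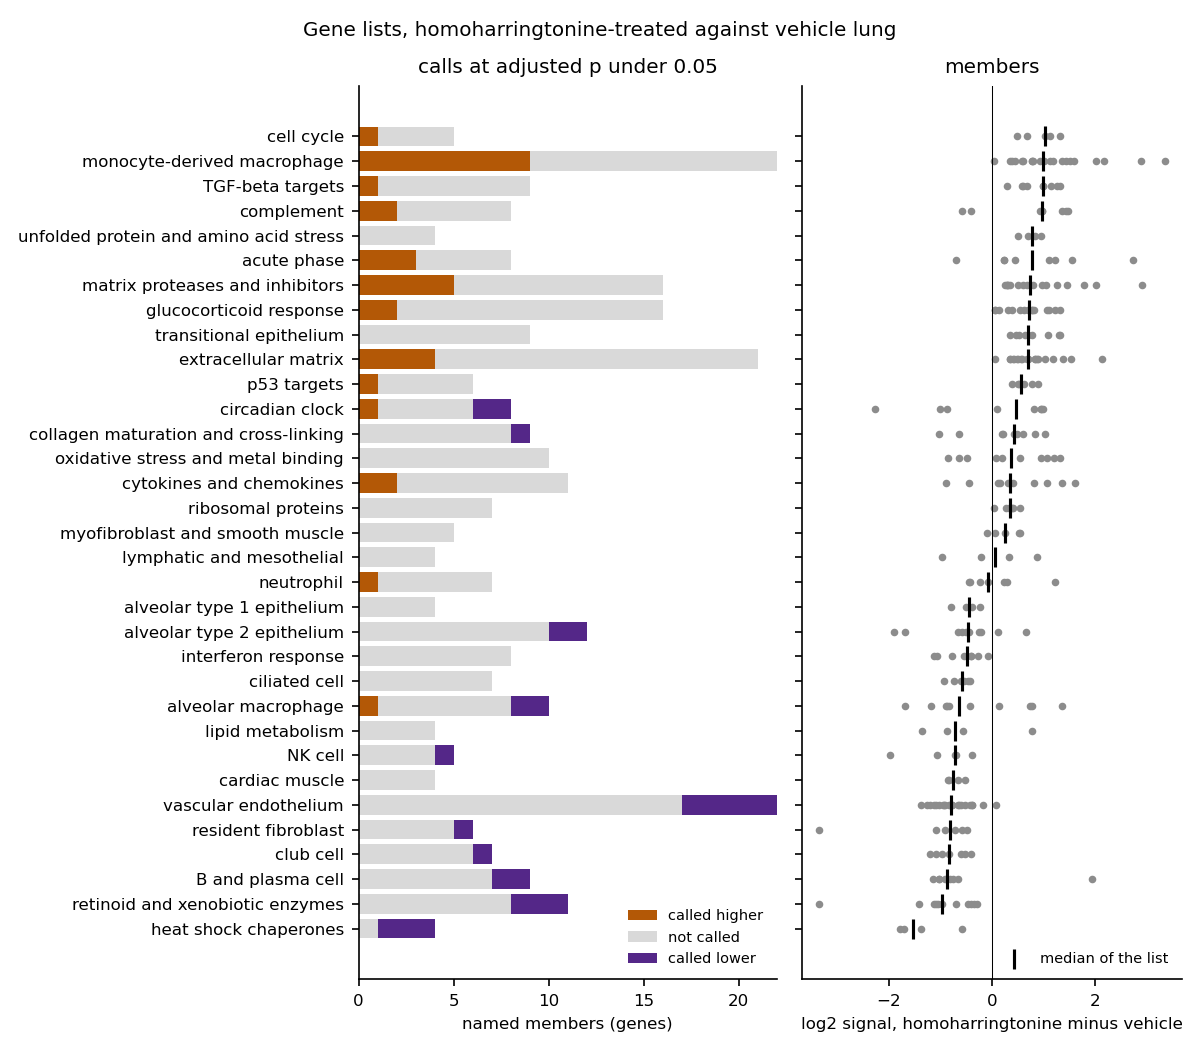
Gene lists with at least 4 named members, ordered by the median log2 difference of homoharringtonine-treated minus vehicle lung. The bars count members called higher, not called and called lower, and each grey point on the right is 1 gene; the macrophage list has 9 members called higher and the endothelial list 5 called lower.

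Arntl gave the most significant fall of a named gene. It encodes BMAL1, which pairs with CLOCK or NPAS2 on E-box sites to drive the daily rhythm of Per, Cry and Nr1d1, while NR1D1 represses Arntl and ROR factors activate it through the same elements. The gene lies on chromosome 7 from 113207465 to 113314126 on the forward strand as the authors' tables place it, on a build that no source used here names. Its log2 signal was 7.21, 7.03 and 7.29 in vehicle, 5.55, 5.93 and 5.93 with bleomycin alone and 4.91, 4.93 and 4.89 with homoharringtonine. The 3 groups did not overlap, and the treated arrays differed by less than 0.05 among themselves. The fall against vehicle was 4.80-fold (log2 difference -2.26 ± 0.13, SE, adjusted p 0.000475).

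The promoter of Arntl is shown with its match to the ROR and NR1D1 element. The window of 300 bases lies around a RefSeq start (GRCm38.p6, chr7:113207261-113207560, forward strand). Capitals mark TAGGTCA, searched on both strands, which occurs at position 281 and in 2.61% of 32851 mouse promoter windows of the same length.
Arntl: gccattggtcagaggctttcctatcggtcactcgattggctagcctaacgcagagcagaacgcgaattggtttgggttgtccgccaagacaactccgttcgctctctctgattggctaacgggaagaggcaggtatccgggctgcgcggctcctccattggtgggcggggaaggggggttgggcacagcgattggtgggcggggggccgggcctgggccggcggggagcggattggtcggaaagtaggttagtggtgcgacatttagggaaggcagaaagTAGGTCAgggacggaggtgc
A second Arntl window (chr7:113207215-113207514), whose start lies upstream, overlaps most of the one shown. It ends before the TAGGTCA and so has no match. The E-box CACGTG, found in 7.15% of windows, is in neither Arntl window nor in that of Npas2. A match is a description of the letters and does not show that a factor binds.

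Of 17 listed clock genes 8 were named and 3 were called. Npas2, the partner of BMAL1 that can stand in for CLOCK, fell 2.01-fold (adjusted p 0.0283), from 5.42, 5.58 and 5.49 to 4.66, 4.24 and 4.57. The repressor Per2 rose 1.91-fold (adjusted p 0.0441), from 5.59, 5.71 and 5.56 to 6.64, 6.74 and 6.29. Arntl and Npas2 in one direction and Per2 in the other had no overlap between vehicle and treated arrays. Per3 differed by 0.98 (adjusted p 0.126), Dbp, an output gene of the clock, by 0.94 (adjusted p 0.140), Per1 by 0.82 (adjusted p 0.104) and Nr1d1 by -0.87 (adjusted p 0.199). Only Arntl was called without any 1 of the vehicle arrays or without homoharringtonine replicate 3, and Per2 was called when bleomycin replicate 1 was left out but not when any other array was. The hour of tissue collection is not given in the labels.

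The 4 named inducible heat shock chaperones were lower in every treated array than in every vehicle array. Treated and vehicle arrays were as fully separate, in either direction, in 21.1% of all probe sets. Of 12 listed genes 4 were named, 3 fell and none rose, with a median of -1.54. Hspa1a and Hspa1b encode nearly identical HSP70 proteins that are made on protein-damaging stress, and Hsph1 encodes HSP110, a nucleotide exchange factor for HSP70. Hspa1b read 7.74, 7.40 and 8.14 in vehicle and 5.96, 6.36 and 5.59 in treated lungs, a 3.46-fold fall (adjusted p 0.0254). Hsph1 went from 7.72, 7.90 and 8.03 to 6.22, 6.47 and 5.84, a 3.27-fold fall (log2 difference -1.71 ± 0.17, SE, adjusted p 0.0106). Hspa1a went from 6.88, 6.67 and 7.01 to 5.42, 5.53 and 5.47, a 2.60-fold fall (adjusted p 0.0124). The co-chaperone Chordc1 differed by -0.59 (95% interval -0.88 to -0.30) and did not pass (adjusted p 0.0832).

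Bleomycin alone read 6.06 to 6.29 for Hspa1b, 5.67 to 6.01 for Hsph1 and 5.05 to 5.53 for Hspa1a, in ranges that overlapped those of the treated arrays. For Chordc1 bleomycin alone lay lower than the treated arrays, at 6.37 to 6.78 against 7.24 to 7.48. None of the 3 chaperones was called without vehicle replicate 2 or 3, and 1 was called without homoharringtonine replicate 3. Hspa1a and Hspa1b share most of their sequence, so their probe sets are uncertain as separate measurements.

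The promoters of Hspa1a and Hsph1 are shown because these genes moved together and heat shock factors bind repeats of the unit GAA. Capitals mark pairs of inverted units, GAANNTTC or TTCNNGAA, where N is any base. Both patterns are their own reverse complement, and 15.1% of all windows hold at least 1. Overlapping matches are capitalised as 1 run.
Hspa1a (GRCm38.p6, chr17:34972107-34972406, reverse strand): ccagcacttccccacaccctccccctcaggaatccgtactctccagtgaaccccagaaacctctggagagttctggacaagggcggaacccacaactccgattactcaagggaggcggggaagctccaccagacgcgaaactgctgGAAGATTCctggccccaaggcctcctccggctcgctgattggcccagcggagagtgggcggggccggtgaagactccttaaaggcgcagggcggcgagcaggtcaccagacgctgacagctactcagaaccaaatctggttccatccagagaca
Hsph1 (GRCm38.p6, chr5:149636287-149636586, reverse strand): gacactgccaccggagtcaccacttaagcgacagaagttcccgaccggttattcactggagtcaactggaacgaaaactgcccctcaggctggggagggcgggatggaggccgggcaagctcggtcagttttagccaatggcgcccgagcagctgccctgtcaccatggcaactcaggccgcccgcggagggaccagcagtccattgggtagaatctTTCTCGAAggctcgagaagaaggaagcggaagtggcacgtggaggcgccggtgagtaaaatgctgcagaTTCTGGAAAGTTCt
The Hspa1a window holds 1 match, at position 147, and the Hspa1b window holds the same match and is identical at 296 of 300 positions (98.7%). The Hsph1 window holds 3, of which 2 overlap into 3 inverted units in a row, TTCTGGAAAGTTC, an arrangement (TTCNNGAANNTTC or GAANNTTCNNGAA) found in 0.603% of all windows. The Hsph1 window also holds an E-box. Here too a match describes the letters and does not show that a factor binds, and whether one bears on the falls was not tested.

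**Figure D4:**
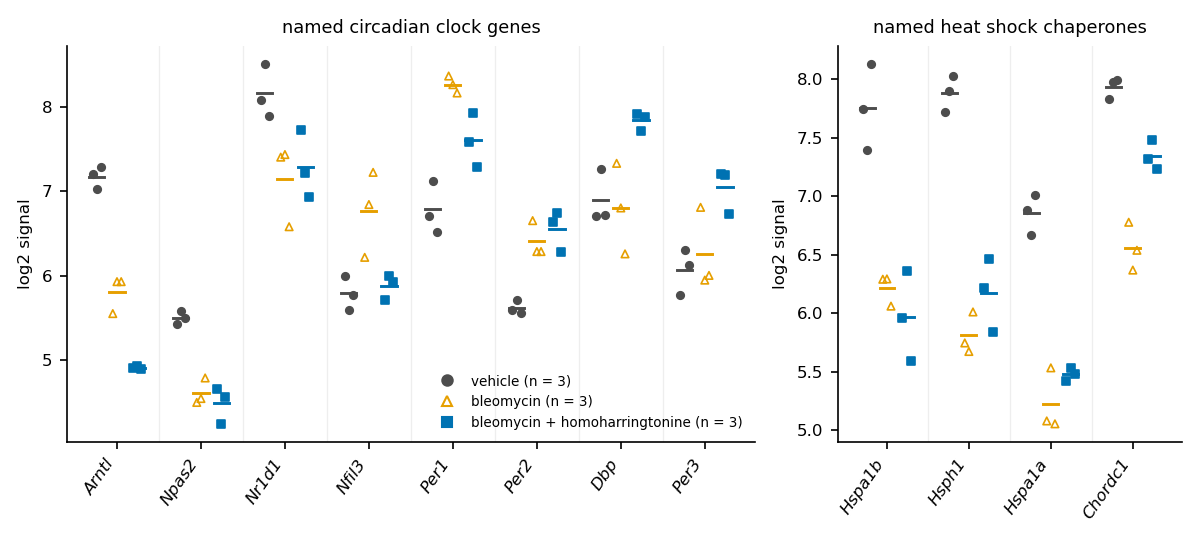
Log2 signals of the 8 named clock genes and the 4 named heat shock chaperones in each of the 9 arrays, with a short line at each group mean. Arntl lies near 4.9 in all homoharringtonine arrays, below bleomycin and vehicle, while the chaperones of treated lungs all lie below vehicle.

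Of the 141 called genes 34 lay farther from vehicle in the treated lungs than in the lungs of bleomycin alone, and in 107 the step from bleomycin alone ran against the difference from vehicle. That step passed over all probe sets in 4 of the 141, all 4 among the 107. The 8 of the 34 with the smallest p for the step are given here. This step uses the same treated arrays as the comparison with vehicle, and in none of the 8 did it pass over all probe sets. Igfbp3, a secreted carrier that binds insulin-like growth factors, read 7.49, 7.39 and 7.74 in vehicle, 6.81, 7.27 and 6.80 with bleomycin alone and 5.59, 6.09 and 5.80 with homoharringtonine. It fell 3.28-fold against vehicle (log2 difference -1.71 ± 0.18, SE, adjusted p 0.0106), against -0.58 for bleomycin alone (adjusted p 0.0853). The treated arrays lay below all others, and the difference from bleomycin alone was -1.13 (adjusted p 0.0682).

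Cth, the enzyme that makes cysteine from cystathionine, had the same order of groups. It read 5.01, 5.45 and 5.45 in vehicle, 4.74, 5.02 and 5.05 with bleomycin alone and 3.76, 3.83 and 4.01 with homoharringtonine, a 2.70-fold fall against vehicle (adjusted p 0.0117). Bleomycin alone differed from vehicle by -0.37 (adjusted p 0.189) and did not overlap the homoharringtonine arrays. The endothelial lipase Lipg fell 2.29-fold against vehicle (adjusted p 0.0484), from 6.42, 6.65 and 6.79 to 5.31, 5.57 and 5.40, with bleomycin alone at 5.75, 6.39 and 6.51. For Arntl the step from bleomycin alone was -0.89 (adjusted p 0.0597).

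Slc26a4, the anion exchanger pendrin, had the largest rise among the genes picked by the smallest p for the step from bleomycin alone. It read 4.79, 4.51 and 4.56 in vehicle, 5.23, 4.99 and 5.54 with bleomycin alone and 6.30, 6.07 and 5.88 with homoharringtonine, a 2.75-fold rise (log2 difference 1.46 ± 0.17, SE, adjusted p 0.0158). Bleomycin alone differed from vehicle by 0.63 (adjusted p 0.0549). Top2a, the DNA topoisomerase of dividing cells, rose 2.47-fold (adjusted p 0.0321), from 5.04, 5.07 and 5.33 to 6.66, 6.07 and 6.62. It was the 1 call among 5 named of 32 cell cycle genes, where the 5 named were all higher and Mki67 differed by 1.03 (adjusted p 0.0723). The p53 target Ccng1 rose 1.84-fold (adjusted p 0.0308) and D17H6S56E-5 rose 1.97-fold (adjusted p 0.0106). Among 6 named of 15 p53 targets Ccng1 was the 1 called, and the death effector Bax differed by 0.61 (95% interval 0.36 to 0.86, adjusted p 0.0601).

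Over all probe sets 1 was called in the same direction against both vehicle and bleomycin alone (0.00242%). It has no gene name here and read 3.71, 3.38 and 3.27 in vehicle, 3.46, 3.30 and 3.03 with bleomycin alone and 4.36, 4.68 and 4.55 with homoharringtonine. When 5343 probe sets numbered below any that the authors listed were left out, a choice made after seeing the data, 8 met this rule, among them Arntl, Igfbp3, Cth and Adm, which encodes the vasodilator peptide adrenomedullin. Without bleomycin replicate 1 it was 7.

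The 8 genes with the largest bleomycin difference among those not called for homoharringtonine against vehicle were Saa3, Timp1, Arg1, Mt2, Chl1, Msr1, Hc and Lox. A missed threshold does not show that they had returned to vehicle levels, and several had wide intervals. Arg1, the arginine-degrading enzyme of wound macrophages, read 4.65, 4.90 and 4.71 in vehicle, 7.30, 8.82 and 9.04 with bleomycin alone and 5.17, 5.21 and 6.20 with homoharringtonine. Its difference from vehicle was 0.78 (95% interval -0.24 to 1.79, adjusted p 0.437). All 3 treated arrays lay above vehicle and below every array of bleomycin alone, and treated replicate 3 was the highest of them. Hc, complement component 5, read 10.76, 10.96 and 10.87 in vehicle and 10.74, 9.90 and 10.20 in treated lungs, with a difference of -0.58 (95% interval -1.61 to 0.44).

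Lox, which cross-links collagen and elastin, read 6.62, 6.77 and 6.98 in vehicle, 9.19, 9.71 and 9.80 with bleomycin alone and 7.72, 6.97 and 8.16 with homoharringtonine. Treated replicate 2 reached the top of the vehicle range, and the difference was 0.83 (95% interval 0.17 to 1.49, adjusted p 0.222). The acute-phase protein gene Saa3 had the largest difference of the 8: vehicle arrays at 4.12, 4.03 and 3.68 and treated arrays at 6.45, 5.91 and 7.64, a difference of 2.72 ± 0.56 (SE, adjusted p 0.0780). The metalloproteinase inhibitor Timp1 differed by 1.78 (0.86 to 2.71), the metallothionein Mt2 by 1.32 (0.76 to 1.88), the adhesion molecule Chl1 by 1.60 (0.72 to 2.48) and the scavenger receptor Msr1 by 1.58 (0.89 to 2.27), with 95% intervals in parentheses. In the acute-phase list 3 of 8 named genes rose: Lrg1 (2.91-fold, adjusted p 0.0489), Lcn2 and Serpina3n (2.13-fold, adjusted p 0.0358). None of the 3 was called without any 1 of the vehicle arrays, without bleomycin replicate 3 or without homoharringtonine replicate 1 or 3.

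**Figure D5:**
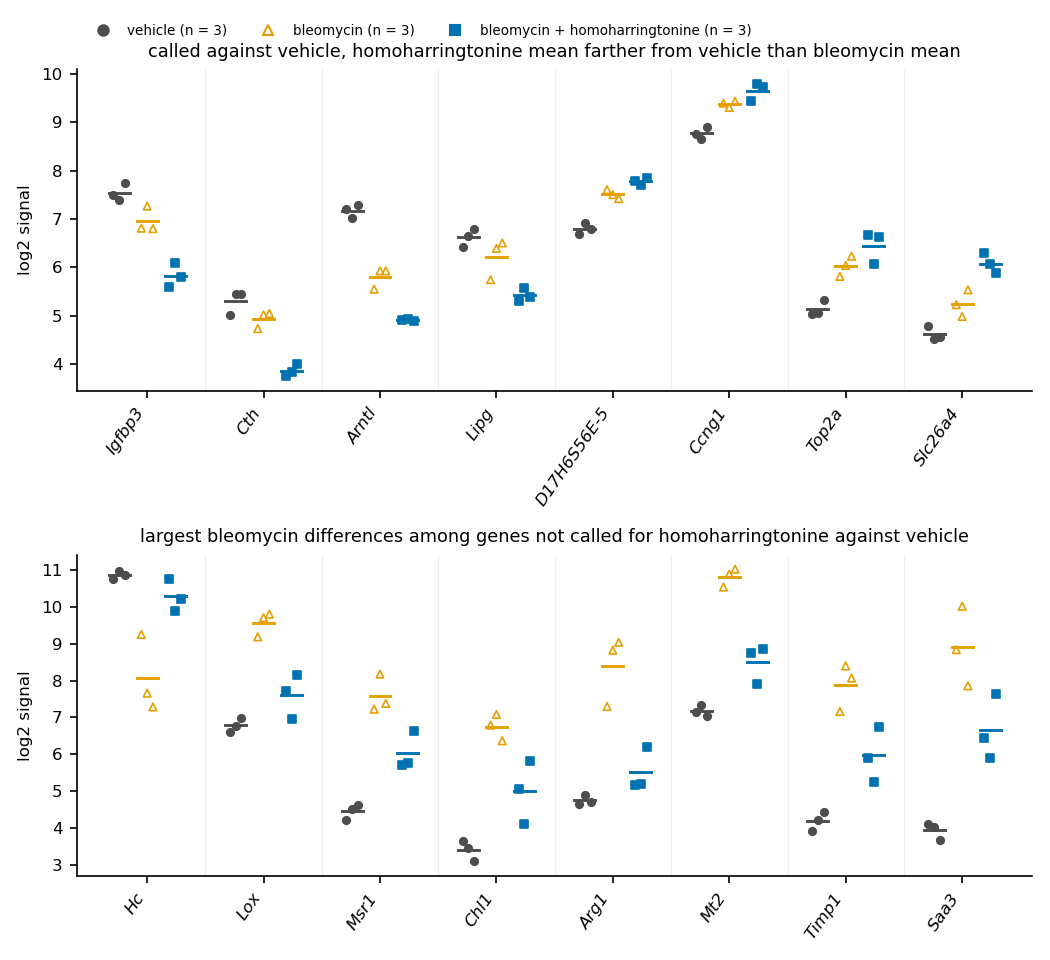
Log2 signals in each of the 9 arrays, with a short line at each group mean. The top panel has 8 of the 34 called genes whose homoharringtonine mean lies farther from vehicle than that of bleomycin alone. They are those with the smallest unadjusted limma p for the step from bleomycin alone, among them Igfbp3 and Cth. The bottom panel has the 8 genes with the largest bleomycin difference among those not called, such as Arg1.

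Further large falls were of genes in no list. Kcnj13, an inward-rectifier potassium channel, fell 3.27-fold (adjusted p 0.0205), from 7.03, 7.55 and 7.30 to 5.77, 5.15 and 5.82. Scube2, a secreted protein that helps release Hedgehog ligands, fell 2.90-fold (adjusted p 0.0308), the myeloid adhesion receptor Adgre4 2.87-fold (adjusted p 0.0126), the lactate transporter Slc5a12 2.69-fold (adjusted p 0.00996) and the matrix protein Spon2 2.69-fold (adjusted p 0.0148). The treated arrays overlapped those of bleomycin alone in Scube2 and Spon2 and lay just above them in Slc5a12, while Kcnj13 was lower with bleomycin alone, at 4.57 to 4.87.

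Among the named genes of translation, the process that homoharringtonine blocks, limma called none. Most of the listed genes had no name and could not be looked up, so this does not show that they were unchanged. Of 47 listed ribosomal protein genes 7 were named. All 7 were higher by 0.04 to 0.54, with 3 at an unadjusted p under 0.05 and 0 listed by the authors. Of 29 listed translation and ribosome biogenesis genes 3 were named, with 0 at an unadjusted p under 0.05 and 0 listed by the authors. Among them the nucleolar Ncl differed by 0.27 (95% interval -0.04 to 0.57) and the nucleolar Gnl3 by -0.12 (95% interval -0.57 to 0.33). Of 27 listed genes of amino acid and endoplasmic reticulum stress 4 were named. Limma called 0 of them, all 4 had an unadjusted p under 0.05 and the authors listed 0. The cystine carrier Slc7a11 read 2.61, 2.95 and 2.94 in vehicle and 3.72, 3.66 and 3.93 in treated lungs (adjusted p 0.0532). Its vehicle values lay below the lower quartile of every array, at the dim end. Markers of heart tissue, which can be taken along with lung, had 4 of 14 genes named, with mean levels of 5.05 to 5.77 in vehicle and 4.32 to 5.37 in treated arrays, and limma called 0 (1 at an unadjusted p under 0.05 and 0 listed by the authors).

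The authors' deposited table of the same comparison, which by its header holds an LPE statistic, listed 294 probe sets, 152 higher and 142 lower, at absolute folds of at least 1.55. Of these 87 were also called by limma, which is 29.6% of the listed and 41.6% of the 209 called. In the authors' deposited table of KEGG maps 23 of 172 had a false discovery rate under 0.05, led by focal adhesion with 8 of 201 genes (0.00084) and the interaction of matrix with its receptors with 6 of 88 (0.00108). PI3K-Akt signaling with 9 of 356 (0.00129), proteoglycans in cancer with 7 of 208 (0.00286), the p53 pathway with 5 of 72 (0.00366) and complement and coagulation with 5 of 92 (0.00752) came next in the authors' deposited table. The lysosome map, lower in that table and picked for the cathepsin genes, had 5 of 134 (0.0189).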

How the data were processed

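RNA from 9 mouse lungs, 3 per group, was read on Affymetrix arrays, whose number limits the precision. The submitters' processing notes name Affymetrix Power Tools and R 3.5.1; no source names the normalization. In the deposited log2 table the 41345 probe sets range from 0.91 to 13.7. The authors' comparison tables give, per the file headers, a signed fold change, a score (the LPE statistic) and adjusted p-values, and their KEGG table gives gene numbers and p-values per map. Names came from these tables by probe set (2010 probe sets, 1908 genes), and the brightest probe set stood for a gene.

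All 9 arrays entered 1 limma 3.58.1 fit in R 4.3.3 with a mean per group and eBayes (6 residual and 2.66 prior degrees of freedom), 2-sided tests and Benjamini-Hochberg adjustment over all probe sets at 0.05. A fold is the antilog of a log2 difference. The script was tested on simulated data. An exact test of 3 against 3 arrays cannot go below 0.1, so none was run. Alternatives were a fit of 6 arrays, the replicate block, another prior, array weights, 2 scalings, a filter on dim probe sets, a fold minimum and leaving out each array.

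The members and the 39 gene lists were chosen with earlier results of these data known. Named genes were the 15 largest rises and falls, the 8 called genes farthest beyond bleomycin by p, the 8 not called with the largest bleomycin difference and up to 4 members of each list by p. Of the called genes 20 predicted genes and 1 microRNA gene (Mir466h) were left out. Ednrb, Jchain, Adm, Per3, Dbp and Nr1d1 fall outside this rule and were named after their values were seen. Promoters are those of RefSeq in GRCm38.p6, where 97.49% of 1753 listed probe sets with a matching gene identifier overlap their gene.

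Same-numbered vehicle and homoharringtonine arrays deviated from their group means with correlations of 0.093, 0.032 and 0.021, so the numbers were not taken as pairs.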

Additional observations from a re-analysis of the deposited data

How the results depend on the processing

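All 141 called named genes kept their sign under all 17 alternatives. Only the 2 scalings could have changed it, since their treated and vehicle arrays did not overlap. The 209 calls (80 higher, 129 lower) were 204 at a fold of at least 1.5, 196 after median centring, 216 after quantile normalization (103 higher, 113 lower) and 253 with a trended robust prior. The 6-array fit gave 144, with 84 lower, and 91 of the 144 were among the 209. Array weights gave 385 (142 higher, 243 lower) with 0 of the same sign against bleomycin. Without dim probe sets it was 358 (130 and 228), with 4 of the same sign. Without the low-numbered probe sets, chosen after seeing the data, it was 467 (185 and 282), with 8. The replicate block gave 22 (11 higher, 11 lower) with 0 of the same sign, and 20 of the 22 were among the 209. As deviations from the group means, each homoharringtonine array correlated best with the vehicle array of its own number. These correlations were weak (0.093, 0.032 and 0.021), a hint from the data and not the design. Leaving out single arrays gave 7 to 257 calls, 5 to 93 higher and 2 to 164 lower, with 0 to 7 of the same sign. 3 named genes that were not called changed sign. When single arrays were left out Upk3b ranged from -0.417 to 0.0209 (above 0 without vehicle replicate 2), Des from -0.193 to 0.0042 (above 0 without homoharringtonine replicate 1) and Ccl17 from -0.22 to 0.569 (below 0 without homoharringtonine replicate 3). The cause of these shifts was not tested. The filters adjust over fewer probe sets and also estimate the prior on the spread anew, and the shares of these were not told apart. Signal over background is not given, and 10 of the 209 calls had 1 group mean below the highest lower quartile of the arrays.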

Other observations

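Plac9b and Tmem254b, neighbours on chromosome 14, had vehicle arrays apart from all others. Each has 3 probe sets, all of cross-hybridisation type 3 in the authors' tables, so their signals are not independent of each other or of near-identical copies. The brightest Plac9b probe set read 6.80, 6.85 and 6.87 in vehicle, 8.37, 8.59 and 8.40 with homoharringtonine and 8.51, 8.59 and 8.60 with bleomycin alone. It was 3.06-fold higher in treated than in vehicle lungs (log2 difference 1.62 ± 0.09, SE, adjusted p 0.000475). Tmem254b read 5.53, 5.81 and 5.29 in vehicle and 8.13, 7.37 and 7.79 with homoharringtonine, 4.66-fold higher (adjusted p 0.00995).

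Of the 209 called probe sets 61 have no name here, 20 higher and 41 lower. Among these, 18 belong to the 5343 numbered below any that the authors listed, 2 higher and 16 lower. The microRNA gene Mir466h, which gives its name to a probe set of 8 probes, read 5.78, 5.62 and 5.81 in vehicle and 4.68, 5.13 and 4.67 with homoharringtonine, 1.88-fold lower (adjusted p 0.0475).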
